A study of Mus musculus with 21 samples.

Results

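The genes described here decide which neurotransmitter a neuron makes, packages and clears. They were chosen by name, as 10 of the 55400 genes in the count and FPKM tables. The 5 cholinergic genes were Chat, Slc18a3, Slc5a7, Ache and Slc10a4, and they were set against 5 genes of other transmitters, namely Slc17a6 for glutamate, Slc32a1, Gad1 and Gad2 for GABA, and Slc6a5 for glycine. All 10 were found in both tables.

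The study followed wild-type C57BL/6 mouse embryonic stem cells, grown on feeder fibroblasts, as embryoid bodies turned into spinal motor neurons. Every group received retinoic acid (1 µM) and the Hedgehog agonist SAG (0.5 µM) up to day 5. The Notch inhibitor DAPT (5 µM) was added from D4 on. In the paper's protocol, the medium given at day 5 held DAPT without retinoic acid or SAG. The D6 and D6_GSKJ4 cultures thus spent their last day without them, and steps from D5 to D6 span this change as well as time. Poly(A) RNA was sequenced from untreated cultures at day 4 (D4), 8 hours later (D4H8), day 5 (D5) and day 6 (D6). Cultures exposed for the last day before harvest to GSKJ4, which inhibits the H3K27 demethylases Kdm6b and Kdm6a, were sequenced at D4H8, D5 and D6 (D4H8_GSKJ4, D5_GSKJ4 and D6_GSKJ4). Each of the 7 groups had 3 replicates, all from one wild-type background, and the GSKJ4 concentration and the control vehicle of these cultures are not given in the sources used here. No cells were sorted, so fewer cells of a type and less RNA per cell cannot be told apart in any value below.

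The 21 libraries held 14982115 to 34383842 counts (median 16238435), and no replicate pair agreed within sampling noise. One library stood apart. In replicate 2 of D5_GSKJ4, 39381 genes were at 0 against 29339 to 32805 in the other 20 libraries, and Slc17a6, Slc32a1, Gad1, Gad2 and Slc6a5 were all at 0 in it. Log2 fold changes of the cholinergic genes at D5 are therefore also given without it. The 5 motor neuron marker genes (Mnx1, Isl1, Isl2, Lhx3 and Lhx4) summed to 7.37 to 18.4 FPKM at D4, 50.2 to 54.6 at D4H8, 165 to 202 at D5 and 238 to 267 at D6. Their sum thus rose with stage, but not every marker did. At D4, 3 of the 5 had a mean of at least 1 FPKM. From D5 to D6, edgeR called 3 of the 5 higher and 1 lower, against 19.2% and 15.1% of all genes tested.

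A cholinergic neuron takes up choline through the high-affinity transporter encoded by Slc5a7, joins it to an acetyl group with choline acetyltransferase (Chat), and loads the product into vesicles with the vesicular acetylcholine transporter (Slc18a3). Acetylcholinesterase (Ache) breaks the released transmitter down, and Slc10a4 encodes an orphan transporter of synaptic vesicles that is found in cholinergic and monoaminergic neurons. Spinal motor neurons are cholinergic, whereas most spinal interneurons use glutamate, loaded by Vglut2 (Slc17a6), or GABA and glycine. GABA is made by the glutamate decarboxylases Gad1 and Gad2, glycine is taken up by the glycine transporter Slc6a5, and both are loaded by Slc32a1.

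Chat and Slc18a3 share a locus. In GRCm38, the build of the files (mm10), Chat spans chr14:32408203-32465989 on the minus strand with 16 exons in its longest transcript. The single exon of Slc18a3 (chr14:32462438-32464850, same strand) lies inside intron 1 of 4 annotated Chat transcripts and begins 1.14 kb downstream of the Chat 5′ end. The genes share 0 exonic bases, so reads within exons can be told apart. Unspliced Chat RNA would cover the Slc18a3 exon, and whether the counting used strand is not stated. The noncoding gene Gm2990 runs from the same region on the opposite strand, shares 0 exonic bases with either gene, and had a mean count of 9.67 at D4 and 702 at D6.

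**Figure D1:**
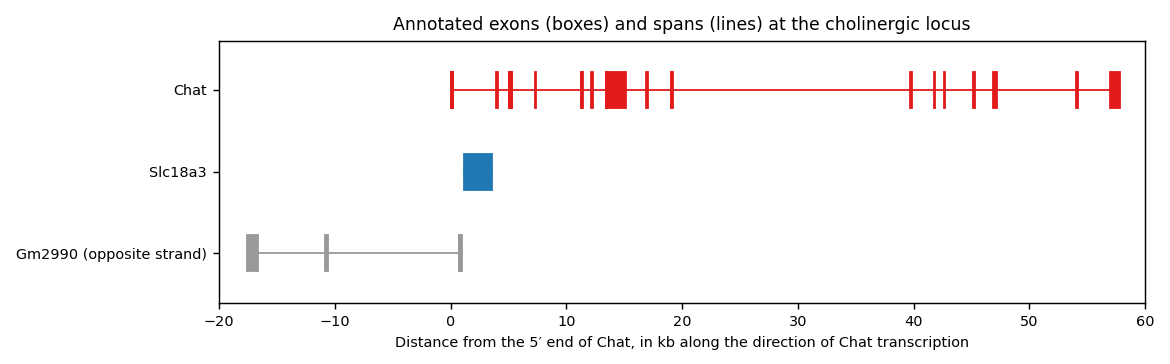
Annotated exons (boxes) and gene spans (lines) of Chat, Slc18a3 and Gm2990, placed by distance in kb from the 5′ end of Chat along its direction of transcription. Slc18a3 is a single exon that starts 1.14 kb into Chat, and Gm2990 extends away from it on the opposite strand.

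The other members lie apart from each other. Slc5a7 is on chr17:54273590-54299034 (minus strand), Ache on chr5:137287519-137294466 (plus) and Slc10a4 on chr5:73006883-73012955 (plus). Slc17a6 (chr7:51622006-51671119) and Slc6a5 (chr7:49910146-49963856), both on the plus strand, are 1658 kb apart. Slc32a1 (chr2:158610767-158615748), Gad1 (chr2:70553072-70602014) and Gad2 (chr2:22622205-22693874) share a chromosome and the plus strand. Antisense neighbours were silent where exons overlapped. Gm42456, which shares 98 bases with Ache, had at most 1 count in any library, and Gm14205, which covers 24.9% of Slc32a1, had 0.

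The first question was when each gene came on in the untreated course. Chat, Slc18a3 and Slc10a4 had already risen 8 hours after D4, a step that also spans exposure to DAPT. All 5 cholinergic genes, Slc17a6 and Slc6a5 were higher at D5 than at D4H8. The GABA and glycine genes stayed below 1 FPKM at every stage. Levels are given as FPKM, fragments scaled to exon length and library size, which can be compared between genes. Fold changes are log2 values from edgeR's quasi-likelihood test on counts, with p-values adjusted over all genes tested.

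Chat, the enzyme that makes acetylcholine, read 0.07, 0.51 and 0.10 FPKM in the 3 D4 libraries and 1.39, 1.79 and 1.05 at D4H8. It reached 12.7, 11.1 and 13.6 at D5 and 31.3, 26.9 and 23.2 at D6. No 2 neighbouring stages overlapped. The log2 fold changes were 2.62 (SE 0.43, edgeR adjusted p = 0.00245) over the first 8 hours, 3.14 (SE 0.35, adjusted p = 1.5e-05) up to D5 and 1.24 (SE 0.31, adjusted p = 0.00749) on the last day. Without replicate 2 of D4, the highest of its group, the first was 3.91. The last step is the smallest of the 3 and had an adjusted p of up to 0.0537 over the alternatives tried.

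Slc18a3, the vesicular loader, had the highest mean of the 10 genes at every stage. Its libraries held 0.20, 1.04 and 1.00 FPKM at D4, 7.30, 5.89 and 5.89 at D4H8, 64.6, 57.5 and 74.4 at D5, and 219, 182 and 165 at D6. Neighbouring stages were again separate, with log2 fold changes of 3.13 (SE 0.34, edgeR adjusted p = 7.8e-05), 3.36 (SE 0.28, adjusted p = 1.6e-06) and 1.65 (SE 0.26, adjusted p = 0.00034). At D6 its mean of 189 FPKM ranked 129th among 55400 genes.

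Slc10a4 was the cholinergic gene nearest to its D6 level by D5. It read 0.10, 0.44 and 0.26 FPKM at D4, 2.47, 2.89 and 4.69 at D4H8, and 53.2, 54.1 and 60.4 at D5, but only 89.6, 73.1 and 68.1 at D6. The steps to D4H8 (log2 fold change 3.60, SE 0.35, edgeR adjusted p = 3.4e-05) and D5 (4.09, SE 0.25, adjusted p = 1.3e-07) had the largest estimates of any cholinergic gene. The D5 and D6 libraries did not overlap, yet the last step was 0.58 (SE 0.22, adjusted p = 0.0514), and 0.59 (adjusted p = 0.046) with the replicate number as a block. It passed the threshold in 9 of 18 alternatives, so whether Slc10a4 still rose after D5 is at the edge of what 3 replicates resolve.

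Slc5a7, the choline transporter, came on late. It held 0.07, 0.08 and 0.07 FPKM at D4 and 0.08, 0.05 and 0.11 at D4H8, and these groups overlapped (log2 fold change 0.10, 95% interval -1.03 to 1.23, edgeR adjusted p = 0.949). It then read 0.39, 0.80 and 1.43 at D5 (3.40, SE 0.42, adjusted p = 3.9e-05) and 14.7, 21.1 and 16.7 at D6 (4.44, SE 0.32, adjusted p = 8.4e-07). Relative to their mean, its D5 libraries differed more than those of the other untreated stages.

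Ache followed a similar late course from a faint start. Its libraries held 0.08, 0.05 and 0.13 FPKM at D4, 0.22, 0.19 and 0.25 at D4H8, 3.22, 2.12 and 2.66 at D5, and 31.4, 19.5 and 19.5 at D6. The D4 and D4H8 libraries did not overlap, and the step was 1.28 (SE 0.43, edgeR adjusted p = 0.13), or 1.25 (SE 0.33, adjusted p = 0.0452) with the replicate block, on 4 to 10 counts per D4 library. The later steps were 3.61 (SE 0.30, adjusted p = 1.1e-06) and 3.26 (SE 0.24, adjusted p = 1.0e-06).

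**Figure D2:**
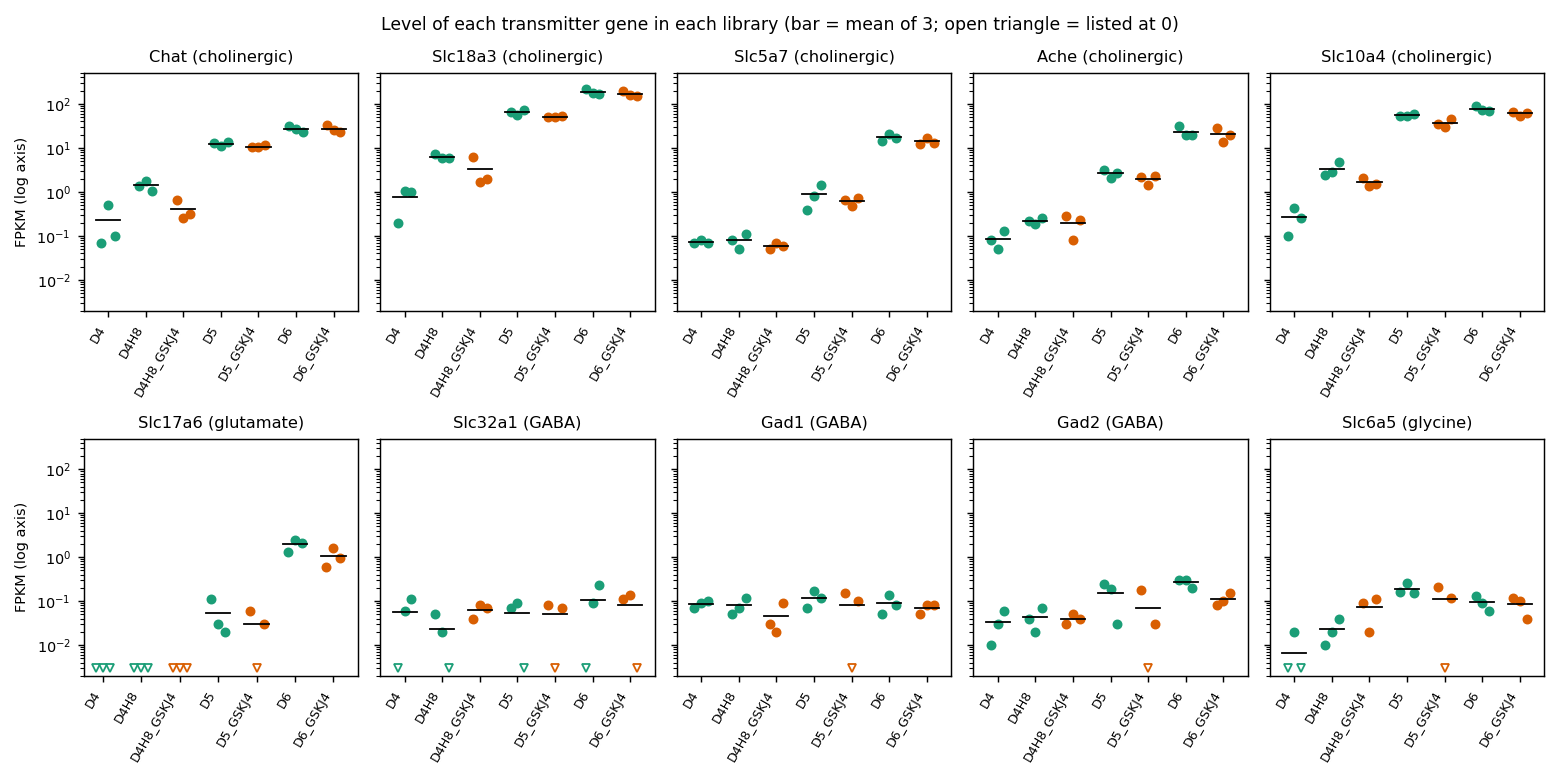
FPKM (log axis) of each of the 10 genes in each of the 21 libraries, untreated groups in green and GSKJ4 groups in orange. Bars are means of 3 libraries and open triangles mark libraries listed at 0. The 5 cholinergic genes climb to means of 17.5 to 189 FPKM at D6, while the 4 GABA and glycine genes stay at or below 0.31 FPKM in every library.

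Set against its own D6 mean, each cholinergic gene had covered a different share of the way by D5. Slc10a4 stood at 72.7% ± 5.05 (SD, n = 3) of its D6 level, Chat at 46.0% ± 4.61 and Slc18a3 at 34.7% ± 4.5, whereas Ache stood at 11.4% ± 2.35 and Slc5a7 at 4.99% ± 3.00. The lowest D5 library of Slc18a3, at 30.5%, lay above the highest of Ache, at 13.7%. Slc5a7 and Ache, whose highest and lowest D5 libraries were at 8.18% and 9.04%, were also separate. At D4H8 the early genes had reached 3.37% to 5.20% and the late genes 0.457% and 0.938%. The order is a description of untreated libraries, and the D6 mean each gene is scaled by carries an SD of 14.7% to 29.2%.

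**Figure D3:**
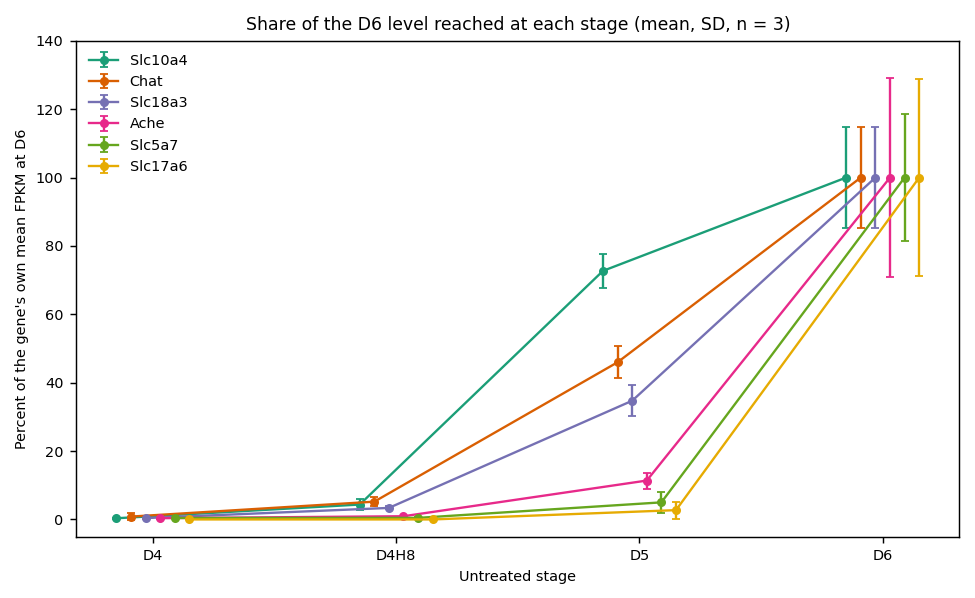
Mean FPKM at each untreated stage as a percent of the gene's own D6 mean, with SD over 3 libraries, for the 5 cholinergic genes and Slc17a6. At D5 the genes spread from 2.72% (Slc17a6) to 72.7% (Slc10a4).

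The ratio between genes of one library showed the same staggering without any scaling between libraries. Slc18a3 stood at 5.09 to 5.48 times Chat at D5 and 6.77 to 7.11 times at D6. Slc10a4 went the other way, from 4.19 to 4.87 times Chat at D5 to 2.72 to 2.93 times at D6. Slc5a7 rose from 0.00603 to 0.0192 of the Slc18a3 level to 0.0671 to 0.116, and Ache from 0.0357 to 0.0498 to 0.107 to 0.143. None of these 4 pairs of ranges overlapped. Of 22 such comparisons, 11 did not overlap, each with a two-sided exact permutation p of 0.1, the smallest that 3 against 3 allows (0.2 after Benjamini-Hochberg adjustment), so none could pass 0.05.

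The promoters of the 5 cholinergic genes are shown because these genes rose together but at different times. Each line gives 250 bases before and 50 after the RefSeq start (GRCm38.p6), 5′ to 3′ on the strand of the gene, with CpG dinucleotides in capitals. The first 3 belong to the early genes and the last pair to the late ones. Their windows are chr14:32465860-32466159 (Chat, minus), chr14:32464801-32465100 (Slc18a3, minus), chr5:73006654-73006953 (Slc10a4, plus), chr17:54298985-54299284 (Slc5a7, minus) and chr5:137288004-137288303 (Ache, plus).
Chat: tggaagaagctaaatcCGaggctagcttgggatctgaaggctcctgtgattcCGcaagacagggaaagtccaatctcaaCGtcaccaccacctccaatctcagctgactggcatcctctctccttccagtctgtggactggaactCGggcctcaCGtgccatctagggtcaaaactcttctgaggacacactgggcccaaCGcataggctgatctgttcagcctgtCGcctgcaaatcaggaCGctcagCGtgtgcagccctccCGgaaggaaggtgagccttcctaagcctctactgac
Slc18a3: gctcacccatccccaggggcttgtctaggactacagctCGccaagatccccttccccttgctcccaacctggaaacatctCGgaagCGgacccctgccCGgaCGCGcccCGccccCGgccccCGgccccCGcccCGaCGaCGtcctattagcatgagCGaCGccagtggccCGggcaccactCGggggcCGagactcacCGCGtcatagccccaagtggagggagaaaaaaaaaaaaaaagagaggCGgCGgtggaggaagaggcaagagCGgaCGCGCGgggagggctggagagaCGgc
Slc10a4: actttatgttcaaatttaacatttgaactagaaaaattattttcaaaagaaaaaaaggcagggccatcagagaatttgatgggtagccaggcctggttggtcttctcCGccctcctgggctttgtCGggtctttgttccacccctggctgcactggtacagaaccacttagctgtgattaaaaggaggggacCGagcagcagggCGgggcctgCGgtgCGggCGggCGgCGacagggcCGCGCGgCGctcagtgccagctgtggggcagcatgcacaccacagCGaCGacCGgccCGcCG
Slc5a7: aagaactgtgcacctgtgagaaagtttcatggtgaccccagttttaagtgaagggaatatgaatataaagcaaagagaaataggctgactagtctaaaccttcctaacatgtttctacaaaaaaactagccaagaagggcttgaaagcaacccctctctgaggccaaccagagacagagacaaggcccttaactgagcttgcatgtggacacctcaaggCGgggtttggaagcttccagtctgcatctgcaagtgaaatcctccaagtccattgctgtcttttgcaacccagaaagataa
Ache: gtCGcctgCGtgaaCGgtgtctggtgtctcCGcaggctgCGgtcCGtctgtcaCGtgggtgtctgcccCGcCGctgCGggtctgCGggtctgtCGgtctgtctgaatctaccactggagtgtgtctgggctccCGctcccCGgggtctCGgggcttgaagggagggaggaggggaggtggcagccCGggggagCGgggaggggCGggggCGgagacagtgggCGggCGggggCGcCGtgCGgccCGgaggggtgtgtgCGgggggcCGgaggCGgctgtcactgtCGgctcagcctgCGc

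The Slc18a3 and Ache windows were rich in CpG, with 27 and 30 dinucleotides and an observed to expected ratio of 0.804 and 0.792, above 79.5% and 78.5% of the 32851 mouse promoters in the table. Slc10a4 had 18 (0.737, above 73.8% of promoters) and Chat 10 (0.436, above 53.9%). Slc5a7 had 1 (0.0668), and only 8.60% of promoters were poorer. GC content ran from 44.7% in Slc5a7 to 74.0% in Ache, against a median of 52.7%. The early genes Slc18a3 and Slc10a4 and the late gene Ache thus stood high in CpG, and the late gene Slc5a7 stood lowest. Early and late genes did not sort by CpG content.

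The 12 RefSeq promoter windows of the 10 genes were searched on both strands for 4 short motifs, and the matches found did not overlap each other. TAATTA, a homeodomain core, occurs in 5.29% of all promoters of this length, ATTGAT, the Onecut core, in 7.54%, CAGATG, an E-box bound by proneural factors, in 17.2%, and TTCAGCAC, the left part of the RE1 element bound by Rest, in 1.17%. CAGATG was found in Slc5a7, 7 bases before the start, in Gad2, 76 bases before it, and in the second entries of Slc17a6 and Slc6a5. TAATTA was found in the second Slc17a6 entry only, and the other motifs in none of the windows. Among the cholinergic promoters, then, the one match was in Slc5a7.

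Slc17a6, the glutamate loader, was the only member of another transmitter to reach 1 FPKM. It had 0 counts in all 9 libraries of D4, D4H8 and D4H8_GSKJ4, where 3 counts would correspond to 0.0162 to 0.0371 FPKM depending on the library. It had 9, 3 and 2 counts at D5, and 118, 211 and 177 at D6, which is 1.34, 2.45 and 2.09 FPKM. D6 was at least 64.5-fold above D4 when D4 is set to a floor of 3 counts per library. The rise from D4H8 to D5 (edgeR adjusted p = 0.00872) rests on 14 counts against 0 and its fitted fold depends on the prior count. From D5 to D6 the counts rose 36.1-fold (exact 95% interval 21.3 to 66.5, counting error only), and edgeR put the log2 change at 5.24 (SE 0.52, adjusted p = 6.0e-05). Replicate 1 of D5 held most of the D5 counts, and without it that change was 6.16. The rise from D4H8 to D5 had an adjusted p of up to 0.0346 with a library left out. At D5 it stood at 1.02% to 5.61% of its D6 mean, which overlapped the 2.23% to 8.18% of Slc5a7 and lay below the other cholinergic genes.

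The inhibitory genes were near the detection limit throughout. Slc32a1, the vesicular GABA and glycine transporter, had 0 to 10 counts per library, was at 0 in 6 of the 21, and never passed the filter on low counts. Gad1 peaked at 22 counts (0.17 FPKM) and did not separate D6 from D4 (33 against 37 counts in all, edgeR log2 fold change 0.10, 95% interval -0.89 to 1.09, adjusted p = 0.872). Neither is evidence of absence, since 3 counts in a library would be 0.0312 to 0.0716 FPKM for Slc32a1.

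Gad2 and the glycine transporter Slc6a5 did rise, to low levels. Gad2 read 0.01 to 0.06 FPKM at D4 and 0.31, 0.31 and 0.20 at D6, which is 10 against 77 counts in all (edgeR log2 fold change 3.15, SE 0.73, adjusted p = 0.00181). Slc6a5 had 3 counts over the D4 libraries, all in one of them, 66 at D5 and 32 at D6. Its D6 rate was 12.5 times that of D4 (exact 95% interval 3.90 to 63.7, edgeR adjusted p = 0.00244), and its highest level was at D5, at 0.15, 0.26 and 0.15 FPKM. The fitted log2 change from D4 to D6 was 3.53, 6.69 without replicate 2 of D4 and 2.89 without replicate 1. For Gad2 it was 3.87 without replicate 3 of D4. The fall from D5 to D6 did not pass (-0.91, SE 0.59, adjusted p = 0.256).

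Counted together, 9 of the 10 members could be tested in the untreated course, and none was called lower at any step. From D4 to D4H8, 3 were higher, against a background of 4.06% of all 17519 genes tested called higher and 0.32% lower. From D4H8 to D5, 7 were higher (17.2% of all genes higher, 10.5% lower), and from D5 to D6, 5 (19.2% higher, 15.1% lower). With the replicate block 4 were higher in the first step, adding Ache, and 6 in the last, adding Slc10a4. Over the whole course from D4 to D6, 8 of 9 were higher (32.9% higher, 31% lower), with Gad1 the exception. Slc5a7, Slc17a6, Gad2 and Slc6a5 passed the filter on low counts only through D5 or D6 libraries, where they were higher. Their calls are therefore not independent of the filter, which favoured a call of higher. Slc17a6 had 0 counts at D4 and at D4H8, so it could not be called in the first step. The cholinergic log2 fold changes over that course were 7.01 for Chat, 7.94 for Slc5a7, 8.13 for Slc18a3, 8.15 for Ache and 8.27 for Slc10a4, against a median of -0.04 over all genes tested. The Chat value was 8.29 without replicate 2 of D4.

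In summed level, the 5 cholinergic genes went from 1.40 FPKM ± 0.81 (SD, n = 3) at D4 to 11.4 ± 0.59 at D4H8, 137 ± 13.7 at D5 and 334 ± 47.9 at D6. The 4 GABA and glycine genes together held 0.183 ± 0.0961, 0.17 ± 0.0529, 0.517 ± 0.206 and 0.563 ± 0.0702 FPKM at the same stages. Cholinergic genes made up 87.8% of the summed FPKM of all 10 members at D4 and 98.5% to 99.6% from D4H8 on. At D6, Slc17a6 supplied 0.602% and the inhibitory genes 0.171%. Among 55400 genes ranked by mean FPKM at D6, of which 13388 reached 1 FPKM, Slc10a4 was 428th, Chat 1838th, Ache 2213th, Slc5a7 3153rd and Slc17a6 11421st, and the GABA and glycine genes stood at 17521st or lower.

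**Figure D4:**
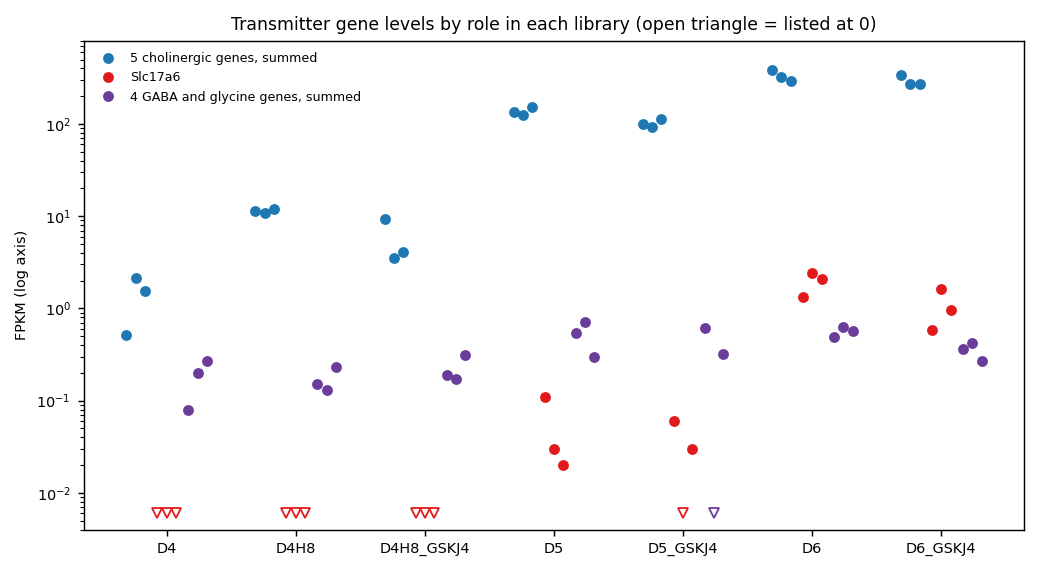
Summed FPKM (log axis) of the 5 cholinergic genes, of Slc17a6 and of the 4 GABA and glycine genes in each library, with open triangles for sums of 0. The cholinergic sum rises from 0.52 to 2.12 FPKM at D4 to 293 to 386 at D6, and the inhibitory sum is at most 0.71 in any library.

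The markers given here of interneurons that use these other transmitters were low at D6 as well. At D6 the 3 V1 markers (En1, Foxd3, Pax2) summed to 1.18 to 1.25 FPKM, the V0 markers (Evx1, Evx2) to 0.12 to 0.42, the 3 V2b markers (Gata2, Gata3, Tal1) to 1.73 to 4.42 and the 4 dorsal inhibitory markers (Ptf1a, Lbx1, Pax8, Lhx5) to 0.63 to 1.24. Of the glutamatergic types, V3 markers (Sim1, Nkx2-2, Nkx2-9) summed to 3.99 to 8.72 and dorsal glutamatergic markers (Tlx3, Lmx1b, Pou4f1) to 2.85 to 7.10. The V3 sum was not low earlier. Its mean was 70.9 FPKM at D4, 108 at D4H8 and 19.5 at D5, against 13.6, 52.9 and 183 for the motor neuron markers. The V3 sum fell after D4H8, but not every V3 marker did. From D4H8 to D5, edgeR called 1 of the 3 higher and 1 lower, against 17.2% and 10.5% of all genes tested. From D5 to D6 it again called 1 higher and 1 lower, against 19.2% and 15.1%. Of the defining markers, Ptf1a was at 0 in 2 of the 3 untreated D6 libraries and Pax8 in 1. The fibroblast markers summed to 11.2 to 25.8 FPKM and those of astrocytes and oligodendrocytes to 9.86 to 11.4. The 4 motor neuron progenitor markers (Olig2, Nkx6-1, Nkx6-2, Sox2) were not low at D6. They summed to 147 to 251 FPKM, with a mean of 196 against 167 at D5. The part of other cells in the member levels was not tested.

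The replicates of D6 also differed in a way that crossed the cholinergic genes. Replicate 1 was highest for Chat, Slc18a3, Ache and Slc10a4, and replicate 2 for Slc5a7 and Slc17a6, both with and without GSKJ4. The 4 pluripotency markers (Pou5f1, Nanog, Zfp42, Dppa5a) summed to 10.1 FPKM in replicate 1 against 86.4 and 76.7 in replicates 2 and 3, and to 13.1 against 97.2 and 73.9 under GSKJ4. Their part in the cholinergic levels was not tested.

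The second question was what a day of GSKJ4 did to these genes. Chat was lower at D4H8, no member was called at D5, and at D6 Slc5a7, Slc10a4 and Slc17a6 were called lower once replicates were paired by number. No member was called higher in any treated group.

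At D4H8, Chat read 0.67, 0.26 and 0.32 FPKM with GSKJ4 against 1.39, 1.79 and 1.05 without, so the highest treated library lay below the lowest untreated one. They overlapped the D4 libraries, at 0.07 to 0.51. Mean CPM fell by 70.3%, or -1.80 on the log2 scale (SE 0.41, edgeR adjusted p = 0.0459). The adjusted p passed in all 7 other fits, but in only 1 of 6 with a library left out. It rose to 0.183, 0.186 and 0.1 without replicate 1, 2 or 3 of D4H8, and to 0.0522 and 0.0923 without replicate 2 or 3 of D4H8_GSKJ4, with log2 fold changes of -1.59 to -1.98. The fall kept its direction in every one of these fits, and its call depended on which libraries were used.

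The other early genes did not pass the threshold. Slc10a4 read 2.03, 1.39 and 1.51 FPKM against 2.47, 2.89 and 4.69, with no overlap (log2 fold change -1.05, SE 0.34, edgeR adjusted p = 0.0962). Slc18a3 read 6.29, 1.72 and 1.93 against 7.30, 5.89 and 5.89, so that replicate 1 of the treated group sat among the untreated libraries. Over all 6 libraries it changed by -1.0 on the log2 scale (SE 0.45, edgeR adjusted p = 0.206), and by -1.83 (adjusted p = 0.0223) without that library. Ache, at 0.28, 0.08 and 0.23 against 0.22, 0.19 and 0.25, overlapped (-0.20, SE 0.51, adjusted p = 0.841). In replicate 1 of the treated group Slc18a3 was 9.39 times Chat, against 6.03 and 6.62 in the other treated libraries and 3.29 to 5.61 untreated.

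Only these 4 members had enough counts to be tested at D4H8, and 1 was called lower, against 1.85% of 16269 genes called lower and 2.11% called higher. Chat and Slc10a4 had no overlap with treated libraries below, a pattern shown by 14.3% of all genes with a mean of at least 10 counts. The 5 motor neuron markers summed to 10.5 to 21.9 FPKM in the treated libraries against 50.2 to 54.6 untreated, and the 4 progenitor markers (Olig2, Nkx6-1, Nkx6-2, Sox2) to 40.4 to 93.0 against 206 to 284. The part of these cells in the lower Chat was not tested. In the low-count members, Slc6a5 had 26 counts over the treated libraries against 9 untreated, and Gad2 12 against 17, both untested.

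At D5 no member was called. Of 16309 genes, 0.00613% were called higher and 0% lower by edgeR, while 767 had an unadjusted p below 0.05 and DESeq2 called 65. Slc10a4 came closest, at 35.1, 30.4 and 45.1 FPKM against 53.2, 54.1 and 60.4, with no overlap and a fall of 34.1% in mean CPM (log2 fold change -0.65, SE 0.17, unadjusted p = 0.00363, edgeR adjusted p = 0.721). It was -0.51 without replicate 2 of D5_GSKJ4, the library with many genes at 0. Slc18a3 was also separate, at 51.8, 49.3 and 53.0 against 64.6, 57.5 and 74.4 (-0.39, SE 0.14, adjusted p = 0.976). These were 2 of 8 members with a mean of at least 10 counts, and 4.98% of all such genes showed the pattern.

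The remaining cholinergic genes overlapped their untreated libraries at D5. Chat read 10.4, 10.2 and 11.6 FPKM against 12.7, 11.1 and 13.6 (log2 fold change -0.26, 95% interval -0.56 to 0.04), Ache 2.14, 1.47 and 2.25 against 3.22, 2.12 and 2.66 (-0.49, -1.06 to 0.07), and Slc5a7 0.65, 0.47 and 0.74 against 0.39, 0.80 and 1.43 (-0.52, -1.53 to 0.49). Without replicate 2 of D5_GSKJ4 the changes were -0.21 for Chat, -0.31 for Ache, -0.35 for Slc5a7 and -0.35 for Slc18a3. Motor neuron markers summed to 91.5 to 117 FPKM in the treated libraries and 165 to 202 in the untreated ones, and their part was not tested.

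At D6 Chat was level, at 32.6, 25.9 and 23.2 FPKM with GSKJ4 and 31.3, 26.9 and 23.2 without (log2 fold change -0.0022, 95% interval -0.37 to 0.37). Slc18a3 read 198, 161 and 155 against 219, 182 and 165 (-0.15, -0.49 to 0.20), and Ache 28.0, 13.8 and 19.4 against 31.4, 19.5 and 19.5 (-0.21, -0.83 to 0.41). These groups overlapped. An unpaired test called 0% of 16301 genes higher and 0% lower, with 222 at an unadjusted p below 0.05 and 1 called by DESeq2.

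Same-numbered D6 libraries deviated together, so a fit with the replicate number as a block is given beside the unpaired one. It called 0.294% of genes higher and 1.28% lower, among them 3 members. Slc5a7 read 12.4, 16.6 and 13.2 FPKM against 14.7, 21.1 and 16.7 (log2 fold change -0.32, SE 0.05, edgeR adjusted p = 0.00159). Slc10a4 read 67.0, 53.5 and 61.8 against 89.6, 73.1 and 68.1 (-0.34, SE 0.06, adjusted p = 0.00139). Slc17a6 read 0.59, 1.62 and 0.96 against 1.34, 2.45 and 2.09 (-0.94, SE 0.16, adjusted p = 0.00262). All 3 were lower in 3 of 3 pairs, with CPM differences of -15.8% to -21.1%, -9.26% to -26.8% and -34% to -55.7%. The 5 motor neuron markers were also lower in 3 of 3 pairs, at 233, 236 and 204 FPKM against 247, 267 and 238, and their part was not tested.

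The Slc17a6 fall was thus the largest of the 3 and rested on 270 against 506 counts. The V3 markers summed to 5.21 to 9.83 FPKM with GSKJ4 and 3.99 to 8.72 without. The dorsal glutamatergic sum was lower in 3 of 3 pairs, at 2.67, 4.91 and 4.75 against 2.85, 6.58 and 7.10. The part of glutamatergic interneurons in the Slc17a6 level was not tested. With the block, Slc18a3 (-0.15, edgeR adjusted p = 0.0547), Ache (-0.22, adjusted p = 0.14) and Chat (-0.01, adjusted p = 0.978) did not pass. Leaving out pair 1 left the same 3 members, leaving out pair 2 lost Slc10a4 (adjusted p = 0.0638), and leaving out pair 3 gave 5, adding Slc18a3 (adjusted p = 0.00733) and Ache (adjusted p = 1.9e-05). Slc5a7 and Slc17a6 were called in each of these fits.

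Gad2 was separate at D6, at 0.08, 0.10 and 0.15 FPKM with GSKJ4 and 0.31, 0.31 and 0.20 without, or 32 against 77 counts. The unpaired estimate on the log2 scale was -1.28 (SE 0.39, edgeR adjusted p = 1.00), against -1.26 (adjusted p = 0.212) with the block. With Slc10a4 it was 1 of 2 members, of 8 with enough counts, whose treated libraries all lay below the untreated ones, a pattern of 2.48% of all such genes. Slc6a5 overlapped, at 30 against 32 counts.

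The ratio of Slc18a3 to Chat within a library moved in opposite directions under GSKJ4 early and late. It was 6.03 to 9.39 in treated and 3.29 to 5.61 in untreated libraries at D4H8, but 4.57 to 5.01 against 5.09 to 5.48 at D5 and 6.09 to 6.68 against 6.77 to 7.11 at D6. None of these pairs of ranges overlapped. Each had a two-sided exact permutation p of 0.1, the smallest possible with 3 against 3, and the change of direction itself was not tested. Of all 22 ratio comparisons, 11 did not overlap. The treated ratios at D4H8 rest on Chat counts of 53, 21 and 24, and counting error was not set against the gap from 5.61 to 6.03. Both genes are read from the same libraries, so scaling between libraries does not enter.

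**Figure D5:**
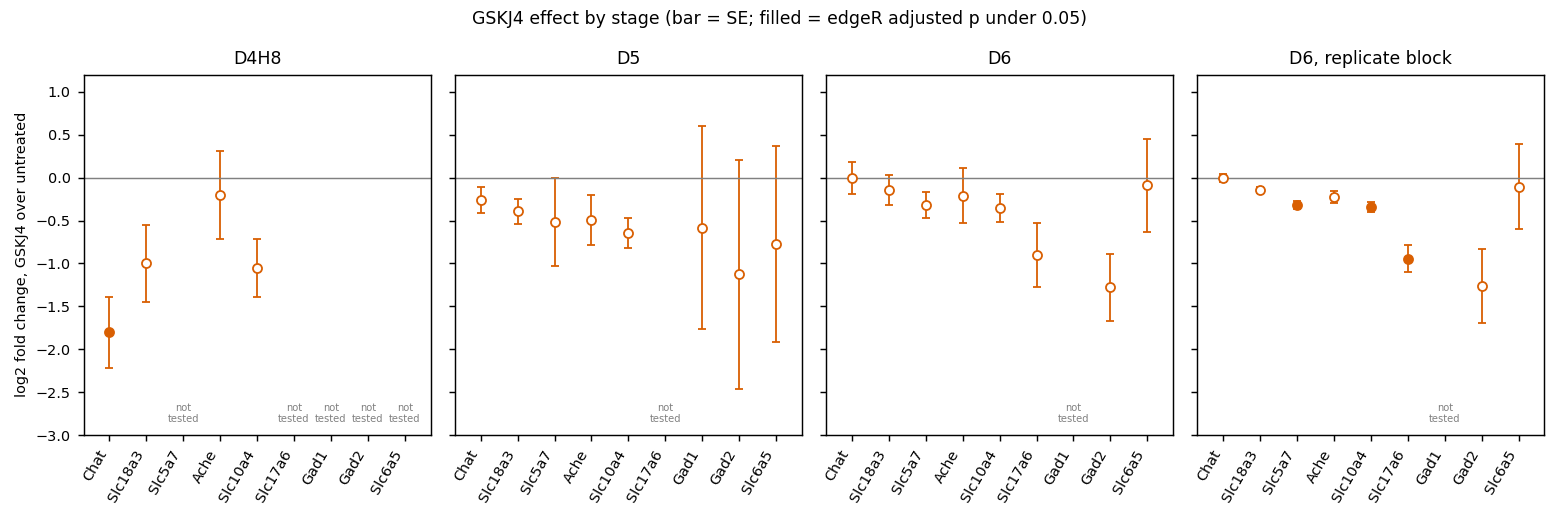
Log2 fold change of each testable member under GSKJ4 at D4H8, D5 and D6, and at D6 with the replicate block, with SE as bars. Filled points have an edgeR adjusted p under 0.05, which holds for Chat at D4H8 and for Slc5a7, Slc10a4 and Slc17a6 at D6 with the block.

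Whether the GSKJ4 effect on a gene differed between stages was tested in one fit over the 18 libraries of the 3 stages. The Chat effect at D6 exceeded that at D4H8 by 1.80 (SE 0.37, edgeR adjusted p = 0.0306), and it was the 1 member called, against 0.735% of 18103 genes called in either direction. The difference between D5 and D4H8 was 1.52 for Chat (SE 0.38, adjusted p = 0.129, or 0.0236 with the replicate block), with 0.249% of genes called. Between D6 and D5 no member and 0% of genes were called (358 at an unadjusted p below 0.05, 1 by DESeq2). The Slc18a3 difference between D6 and D4H8 was 0.86 (SE 0.46, adjusted p = 0.431), and 1.70 (adjusted p = 0.00335) without replicate 1 of D4H8_GSKJ4. The D6 against D4H8 call for Chat was lost when the fit covered all 21 libraries (adjusted p = 0.106) and in 9 of 18 fits with a library left out.

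Other genes of the same transmitter pathways moved in both directions. Of 10 tested genes of choline supply and breakdown, 5 were higher and 4 lower at D6 than at D4, a contrast in which 32.9% of all genes were called higher and 31% lower. The choline transporter-like gene Slc44a5 rose from a mean of 0.103 to 30.8 FPKM (log2 fold change 8.24, edgeR adjusted p = 1.8e-10), while butyrylcholinesterase (Bche) fell by 2.32, from 4.98 to 0.96 FPKM. Of 12 other glutamate genes, 4 were higher and 2 lower. The glial glutamate transporter Slc1a3 fell by 2.62, and Slc17a8, another vesicular glutamate loader, singled out after its values were seen, read 1.96, 4.5 and 3.18 FPKM at D6, above Slc17a6 in each D6 library. Of 9 other GABA and glycine genes, 3 were higher and 5 lower, among them the glycine-cleaving enzyme Gldc, which fell by 1.67, and the GABA-degrading enzyme Abat, which rose by 2.70.

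Some monoamine genes reached the level of Chat. Tyrosine hydroxylase (Th), the first enzyme of catecholamine synthesis, went from 0.133 FPKM ± 0.0379 (SD, n = 3) at D4 to 45.7 ± 7.02 at D5 and 31.2 ± 3.03 at D6, and the vesicular monoamine transporter Slc18a2 reached 28.3 ± 7.65 at D6. Both were near the D6 level of Chat, 27.1 ± 4.04. Their log2 fold changes from D4 to D6 were 7.94 and 4.88 (edgeR adjusted p = 3.3e-10 and 2.2e-09), whereas Ddc, the next enzyme of that pathway, fell by 1.21. In all, 5 of 12 tested monoamine genes were higher and 5 lower, in a contrast with 32.9% of all genes higher and 31% lower. Of the noradrenergic and serotonergic markers given here, Dbh was at 0.107 FPKM at D4 and 1.33 at D6, and Fev at 0.0133 and 1.04, and the part of such neurons was not tested.

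All 9 tested peptide genes were higher at D6 than at D4, led by Scg2 (log2 fold change 9.28) and somatostatin (Sst, 8.25). Of 13 motor neuron factors 11 were higher and 1 lower. Of 13 tested factors of inhibitory and excitatory interneuron fate 7 were higher and none lower. The shares over all genes were again 32.9% higher and 31% lower. The list medians from D4 to D6 were 8.13 for the 5 cholinergic members, 5.89 for peptides, 3.90 for motor neuron factors, 1.13 for fate factors, 0.48 for monoamine genes, 0.30 for other cholinergic genes, 0.28 for other glutamate genes and -0.97 for other GABA and glycine genes. The median over all genes tested was -0.04.

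Under GSKJ4 at D4H8, 5 of the 13 motor neuron factors were lower, against 1.85% of all genes, and none higher. They included Lhx3 (log2 fold change -3.10, edgeR adjusted p = 0.0194), Ebf2 (-2.58, adjusted p = 0.00758) and Isl1 (-2.44, adjusted p = 0.0103). Ddc (-2.50, adjusted p = 0.00364) and Th (-2.26, adjusted p = 0.0405) of the monoamine genes and Slc1a3 (-1.39, adjusted p = 0.0444) of the glutamate genes were also lower. No gene of the other lists was called there, and none of any list at D5 or D6 by the unpaired test. The targets of the inhibitor were themselves present, with Kdm6b at 17.5, 24.6, 32.9 and 40.1 FPKM on average from D4 to D6 and Kdm6a at 8.52, 8.91, 7.87 and 7.44.

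As a description, the genes whose log2 CPM followed Chat most closely over the 21 libraries, out of 11031 candidates, were Crtac1 (Pearson r = 0.992), Tmem179 (0.991), Celf6 (0.988), Tubb3 (0.988), which encodes neuronal tubulin, and Syp (0.988), which encodes the vesicle protein synaptophysin. Those closest to Slc17a6 were Thra (0.976), Gria4 (0.973), Spon1 (0.972) and Mb21d2 (0.971). For Gad1 the closest gene, Etfrf1, was at 0.917 and dropped to 0.817 without replicate 2 of D5_GSKJ4, the library with many genes at 0, and the next, Adprm, Pbx4, Shld1 and Apcdd1, were at 0.853 to 0.756 and dropped to 0.663 to 0.403 in the same way. The points share stages and libraries.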

How the data were processed

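Reads were processed by the authors with HISAT2, SAMtools, HTSeq and DESeq2 on the mm10 genome, per the submitters' processing notes, with the strand setting not given in the sources used here. The deposited files hold whole-number counts per gene and FPKM values per gene made from them by the authors. FPKM recomputed from the deposited counts and the listed exonic lengths differed by at most 0.005. Replicates were not pooled by the authors.

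Members, gene lists and tests were chosen with earlier results of these data known. The labels call the 3 samples of a group biological replicates, and p-values measure the spread between them. Genes passing filterByExpr (minimum count 10) were tested with edgeR 4.0.16 (quasi-likelihood test, TMM scaling, Benjamini-Hochberg adjustment, threshold 0.05) in R 4.3.3, with limma 3.58.1 loaded. One fit of the 12 untreated libraries gave the stage contrasts, a fit of 6 libraries each GSKJ4 effect, and a fit of 18 the stage differences. Alternatives were DESeq2 1.42.0, RLE and upper-quartile scaling, other count filters, a replicate block, a fit of all 21 libraries, and leaving out each library. Scripts were tested on simulated data. FPKM and ratios are descriptions, with exact permutation tests for ratios in scipy 1.17.1. Floors of 3 counts and 95% intervals of count ratios cover counting error only. The SE of an edgeR log2 fold change is not an output of that test. It was derived as the absolute log2 fold change divided by the square root of the F statistic. The 95% intervals of edgeR log2 fold changes were built from this SE with normal quantiles, so they are too narrow for 3 against 3 libraries. For Slc10a4 under GSKJ4 at D6, the unpaired interval was -0.666 to -0.036, although edgeR's unadjusted p was 0.0638. Promoters are from RefSeq (GRCm38.p6), where all 10 members matched by symbol. Beside the members, the text names up to 3 genes per list with the largest changes from D4 to D6 or under GSKJ4 and a mean of at least 100 counts, and the 5 genes most correlated in log2 CPM with Chat, Slc17a6 and Gad1. Some genes and marker lists are not reported here.

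The replicate numbers were checked by correlating the deviations of same-numbered libraries from their group means. At D6 with and without GSKJ4 the 3 correlations were 0.736, 0.395 and 0.534, and between neighbouring untreated stages the lowest was 0.103, so these numbers were taken to pair the samples. At D4H8 and D5 with and without GSKJ4 the lowest were 0.087 and 0.0425, and the numbers were not taken as pairs. This division is a narrow one. The D4H8 correlations with and without GSKJ4 were 0.468, 0.087 and 0.292, against 0.339, 0.181 and 0.16 between untreated D4H8 and D5. The main stage fit did not use the pairing, and the 3 member calls at D6 depend on it.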

Additional observations from a re-analysis of the deposited data

Results flagged for a closer look

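The GSKJ4 effect on Chat differed between stages. Its log2 fold change under GSKJ4 was 1.80 higher at D6 than at D4H8 (SE 0.37, edgeR interaction test, adjusted p = 0.0306), with Chat lower in 3 of 3 treated libraries at D4H8 and level at D6. The call was lost in 9 of 18 fits with a library left out. These were the fits without replicate 1 or 2 of D4H8 (adjusted p = 0.101 and 0.0953), replicate 2 or 3 of D4H8_GSKJ4 (0.0707 and 0.0517), replicate 3 of D5 (0.0549), replicate 2 or 3 of D6 (0.0883 and 0.0985) and replicate 1 or 2 of D6_GSKJ4 (0.0715 and 0.0654). The size stayed between 1.60 and 1.85 in them.

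The ratio of Slc18a3 to Chat within a library moved up under GSKJ4 at D4H8 and down at D5 and D6, in all treated libraries each time. The log2 change at D5 minus that at D4H8 was -0.78, and the change at D6 minus that at D4H8 was -0.79. This difference between stages was not tested. At D4H8 the treated ratios rest on Chat counts of 53, 21 and 24. Of 22 ratio comparisons, 11 did not overlap.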

How the results depend on the processing

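Over 92 results, most kept direction and call. Requiring at least 10 counts in every library left 1 member higher in each stage contrast, since it removed all but Slc18a3. Leaving out a library gave 3 to 4, 7 to 8, 5 to 6 and 8 members higher in the order of the stage contrasts above. For GSKJ4 at D4H8, 2 members were lower without a filter, with the replicate block, with DESeq2 and in one fit of 21 libraries, and 0 to 2 with a library left out. For GSKJ4 at D6 the replicate block gave 3. The numbers were not taken as pairs at D4H8 and D5, where the replicate block called Slc18a3 at D4H8 (-1.21, edgeR adjusted p = 0.0163) and no member at D5. For the stage differences, D5 minus D4H8 gave 1 member without a filter, with the block and with DESeq2 (0 to 2 with a library left out), and D6 minus D4H8 gave 0 in the fit of 21 (0 to 2).

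Some effects changed sign. Upper-quartile scaling, which moved the median of all genes from D4 to D6 from -0.04 to -0.19, gave Gad1 -0.046 from D4 to D6 and Chat 0.0022 under GSKJ4 at D6. The Ache difference D6 minus D4H8 was -0.033 with RLE and the block, -0.031 with DESeq2, -0.017 with upper-quartile scaling and -0.020 in the fit of 21. With a library left out, the ranges that crossed 0 were, from D4 to D4H8, -0.042 to 0.27 (Slc5a7), -0.54 to 0.071 (Gad1) and -0.021 to 1.23 (Gad2), and -0.34 to 0.38 for Gad1 from D4 to D6. Under GSKJ4 they were -0.54 to 0.16 (Ache, D4H8), -0.86 to 0.013 (Slc5a7, D5), -0.19 to 0.15 (Chat, D6), -0.30 to 0.011 (Slc18a3, D6), -0.55 to 0.10 (Ache, D6) and -0.43 to 0.26 (Slc6a5, D6). Stage differences are given for Chat, Slc18a3, Ache and Slc10a4, which had a mean of at least 10 counts in each D4H8, D5 and D6 group. For Ache the ranges were -0.64 to 0.056 (D5 minus D4H8), -0.34 to 0.36 (D6 minus D4H8) and -0.034 to 0.61 (D6 minus D5). Among the members with fewer counts, differences of Slc5a7, Slc17a6, Gad1 and Gad2 also crossed 0, within -1.69 to 2.03. CPM in place of FPKM put the cholinergic share at 78.4%, 96.5%, 98.9% and 98.5% from D4 to D6, and at 90.5%, 99.2% and 99.1% with GSKJ4. The causes were not tested. The D6 block fits that left out a pair were added after seeing the data. Depth limits the GABA and glycine genes, at no more than 31 counts in any library.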
